A study of Homo sapiens with 6 samples.

Results

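The lysosome digests glycans, lipids and proteins, and 33 genes for its soluble hydrolases, their helpers and its membrane proteins were followed here across 6 RNA libraries of U-937 cells, an established human line of monocyte-like leukemia cells. They were taken by symbol from a table of 26810 rows other than spike-ins, and every symbol had 1 row. In 3 libraries the cells carried sgNS, the control guide, and in the other 3 they carried sgMETTL1.3, a guide against METTL1, which encodes the catalytic subunit of a tRNA methyltransferase. Both groups came from 1 Cas9 clone, are labelled with a KMT2A-MLLT10 fusion, were transduced with lentivirus, kept under blasticidin (10 µg/ml) and hygromycin B (200 µg/ml), and harvested about 8 to 10 days after transduction. Only 1 guide against METTL1 and no rescue are in these libraries. Whether replicates came from separate cultures is not stated, and the p-values therefore reflect library-to-library spread that may be technical.

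Soluble lysosomal enzymes are made in the endoplasmic reticulum, tagged with mannose 6-phosphate in the Golgi and carried to the lysosome by receptors. Glycosidases and sulfatases take sugar chains apart step by step, and lipid enzymes work together with small activator proteins. Membrane proteins form the glycan-coated lining and the channels and carriers that export the products. Many of these genes share an E-box in their promoters, known as the CLEAR element, that the transcription factors TFEB and TFE3 can bind, and macrophages are rich in lysosomes. The members fell into 11 glycosidases, 5 sulfatases, 8 lipid enzymes, activators and carriers, 2 proteases and 7 membrane proteins.

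The promoters of 5 members held TCACGTGA, a longer form of this E-box, and all 5 are shown. These genes moved to different extents. RefSeq promoter windows (GRCh38.p14, 300 bases each) were matched for 23 of the 33 members. Each stretch below runs 5′ to 3′ on the strand of the gene, from 200 bases before to 10 bases after the annotated start, with every CACGTG in capitals.
MCOLN1 promoter, chr19:7522424-7522633, plus strand: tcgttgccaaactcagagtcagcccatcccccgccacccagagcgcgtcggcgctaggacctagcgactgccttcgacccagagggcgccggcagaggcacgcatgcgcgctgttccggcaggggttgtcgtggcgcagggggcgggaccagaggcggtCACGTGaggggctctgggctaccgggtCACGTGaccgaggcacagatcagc
LAMP1 promoter, chr13:113297039-113297248, plus strand: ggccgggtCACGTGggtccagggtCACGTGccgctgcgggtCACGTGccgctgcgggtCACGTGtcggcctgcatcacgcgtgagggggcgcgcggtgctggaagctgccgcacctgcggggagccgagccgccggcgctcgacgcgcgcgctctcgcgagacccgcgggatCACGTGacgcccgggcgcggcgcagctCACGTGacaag
CLN3 promoter, chr16:28492065-28492274, minus strand: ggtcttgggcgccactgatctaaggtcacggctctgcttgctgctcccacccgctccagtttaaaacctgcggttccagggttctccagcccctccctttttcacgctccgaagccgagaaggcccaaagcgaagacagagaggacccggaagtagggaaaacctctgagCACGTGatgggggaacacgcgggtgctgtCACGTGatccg
GAA promoter, chr17:80101381-80101590, plus strand: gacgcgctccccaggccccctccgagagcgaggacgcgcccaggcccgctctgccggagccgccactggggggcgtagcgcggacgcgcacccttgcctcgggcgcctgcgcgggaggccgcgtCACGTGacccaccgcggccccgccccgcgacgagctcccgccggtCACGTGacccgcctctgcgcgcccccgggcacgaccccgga
GALNS promoter, chr16:88856938-88857147, minus strand: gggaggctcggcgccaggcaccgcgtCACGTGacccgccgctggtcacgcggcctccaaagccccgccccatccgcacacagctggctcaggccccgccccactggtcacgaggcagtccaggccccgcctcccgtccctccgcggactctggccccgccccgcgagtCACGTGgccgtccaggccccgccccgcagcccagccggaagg
Among the letters searched were CACGTG and TCACGTGA, each of which reads the same on both strands, and the second contains the first. A still longer form that contains TCACGTGA was searched as well. CACGTG was in a window of 8 of the 23 members (34.8%), which were ARSB, CD63, CLN3, GAA, GALNS, LAMP1, MCOLN1 and NEU1, and in 12.7% of 9198 tested genes with a window. TCACGTGA was in 5 of the 23 (21.7%) and in 2.27% of those tested genes. The still longer form was in 3 of the 23 (13%), which were GAA, GALNS and MCOLN1, and in 0.924% of those tested genes. Counted by window over all genes, CACGTG was in 7.26% and TCACGTGA in 0.98% of 35116 windows. In the members' 39 windows the shares were 23.1% and 15.4%. LAMP1 carried 6 copies of CACGTG, of which 4 lay between 192 and 142 bases before the start and 1 spanned the start. In MCOLN1 the 2 copies began 41 and 14 bases before the start, and in GAA 76 and 31 bases before it. A match is a run of letters and not a measured binding site.

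METTL1 itself was lower in each sgMETTL1.3 library (8.28, 5.94 and 7.42) than in any control (19.7, 22 and 20.3), with a log2 fold change of -1.41 (SE 0.131, adjusted p = 2.41e-06 by limma), or -1.09 as TPM. WDR4, the partner subunit of METTL1, also fell, from 26.2 ± 1.65 to 11.4 ± 3.21 (SD, n = 3; -1.16 in log2, limma adjusted p = 0.000178), or -0.83 as TPM. Values here and below are TPM multiplied by 1 factor per library that sets the ERCC spike-in sum equal, called the deposited scale, and this factor averaged 1.19 ± 0.0518 over the controls and 0.935 ± 0.0973 over the sgMETTL1.3 libraries (SD, n = 3). The factors do not overlap between the groups, and the median change over all tested genes, in log2, was -0.32 on this scale and 0.00 after the factor was undone (as TPM), and results are given on both scales. The library sgMETTL1.3 replicate 1 stood apart by GC content: across 11745 tested genes its distance from the other 2 libraries of its group followed transcript GC (Spearman 0.838, a description across genes of the same libraries). Results that rest on it are therefore also given without it. Of 10 monocytic markers, 9 had a mean of at least 1, with CD33 at 114 in controls and MPO near 0 (0.36 in both groups). Their sum ran from 1233 to 1325 in controls and from 928 to 1202 with sgMETTL1.3 on the deposited scale, but from 1075 to 1092 and from 1116 to 1172 as TPM, so the order of the groups turned with the scale. Means in controls and with sgMETTL1.3 on the deposited scale were 114 and 72.8 for CD33 and 30.0 and 16.3 for FCGR1A. For CSF1R they were 4.20 and 2.38, and for ITGAM 35.1 and 25.1. CD4 stood at 219 and 173, PTPRC at 322 and 252, and CEBPA at 198 and 178. SPI1 was at 119 and 109, and CD68 at 244 and 236. CD68, also counted among the other lysosome genes below, was at 206 and 252 as TPM. The part of these markers in the results was not tested. The T cell, erythroid and epithelial markers summed to 0.323 or less in every library, and B cell markers to between 3.69 and 8.18. Fibroblast and endothelial markers, led by PECAM1, summed to 45.9 to 49.8 in controls and 35.9 to 40.0 with sgMETTL1.3, or as TPM to 40.6 to 40.7 and 38.0 to 43.1.

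Most lysosomal members that changed were higher with sgMETTL1.3, against a transcriptome in which far more genes were lower on the same scale. Of the 33 members, 31 were at 1 or more in 3 or more libraries and were tested, and 11 of them rose (limma, adjusted p under 0.05), where 6.4% of 12449 genes rose. A further 3 fell, where 49.3% of genes fell, and the other 17 missed the threshold. SLC26A11 is among the 11, and among the members counted as higher below. It entered the set with its rise already known, so these counts lean upward by this member. As TPM, 23 of 32 tested members rose (24.4% of 12404 genes rose) and 2 fell (26.6%). Among the 23 is SGSH, which reached the minimum only in the sgMETTL1.3 libraries, where it is high; without it 22 of 31 rose. The members' median log2 fold change was 0.15 on the deposited scale and 0.53 as TPM (0.50 without SGSH), beside -0.32 and 0.00 for all tested genes. Without sgMETTL1.3 replicate 1, 11 members rose and 6 fell on the deposited scale (6.43% and 61.4% of genes), and 26 rose and 3 fell as TPM (34.7% and 35.4%). The libraries of the 2 groups did not overlap in 17 of the 31 tested members, 12 of them higher (8.66% of genes) and 5 lower (53.4%), and as TPM in 24 higher besides SGSH (30.2%) and 2 lower (33.1%). These libraries are from bulk cultures, in which fewer cells with a transcript and less of it per cell cannot be told apart.

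The direction of 13 members was the same call in 6 fits: on the deposited scale and as TPM, each with all libraries, without sgMETTL1.3 replicate 1, and with a correction for GC content. Of these, 11 rose, namely HEXA, GLB1, NEU1, FUCA1, ASAH1, SMPD1, PSAP, LAMP1, MCOLN1, CLN3 and SLC26A11, and GLA and ARSB fell. The 6 fits reuse the same libraries and are not independent. Undoing the factor moves fold changes up, so a member that rose on the deposited scale was likely to rise as TPM too. How many of all genes kept the same call in all 6 fits was not counted. Over all genes, 8.18% rose and 61.4% fell with GC correction, and 29.4% and 35.5% as TPM with GC correction. IDS, GALNS and TPP1 were each called lower in 1 of these fits and higher in 2 others.

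**Figure D1:**
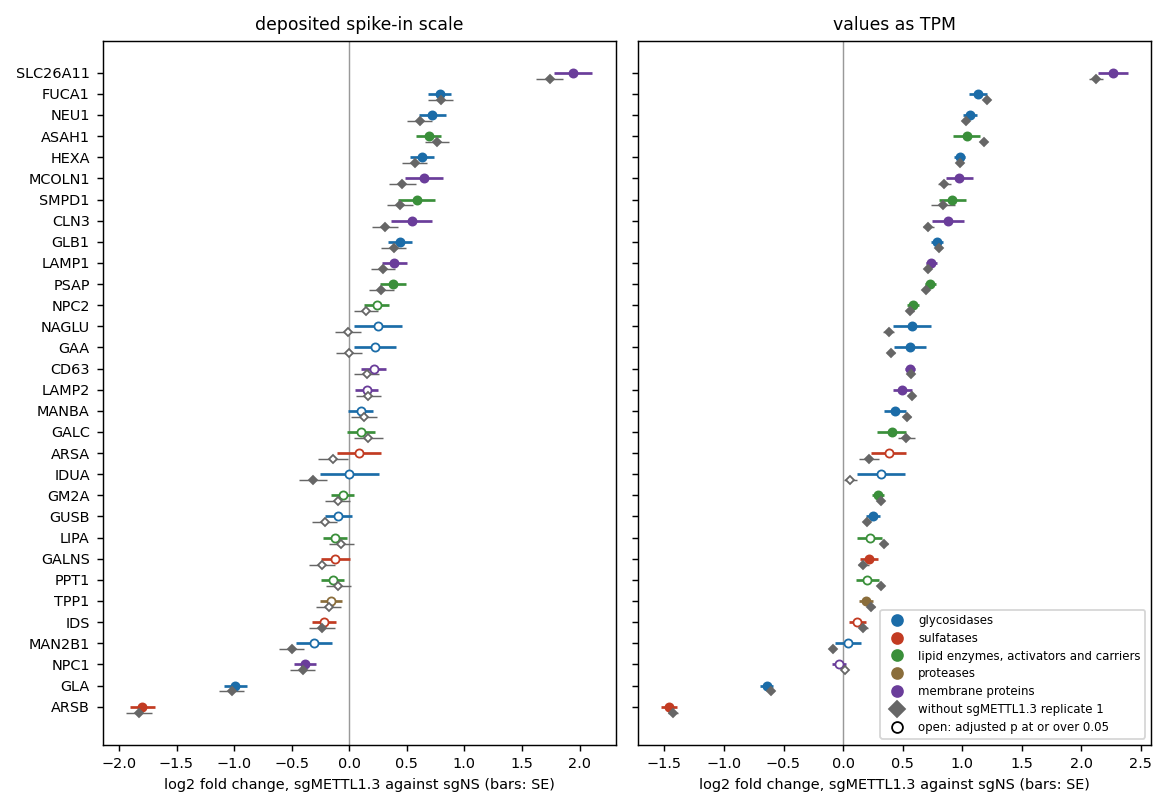
Log2 fold change (x axis) of the 31 tested members on the deposited scale (left) and as TPM (right), with SE bars; circles use all 6 libraries, grey diamonds leave out sgMETTL1.3 replicate 1, and open symbols did not pass. SLC26A11 stands at the top at 1.95 and 2.26, ARSB at the bottom at -1.80 and -1.46, and most other members shift to the right from the left panel to the right panel.

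Among the glycosidases, 4 of 11 rose and 1 fell on the deposited scale (6.4% and 49.3% of all genes). As TPM 8 rose and 1 fell (24.4% and 26.6% of all genes). FUCA1, which removes fucose from glycoproteins and glycolipids, had values of 167, 182 and 183 in controls and 303, 288 and 329 in sgMETTL1.3 libraries. The groups did not overlap, and the log2 fold change was 0.78 (SE 0.0973, adjusted p = 2.12e-05 by limma), or 1.13 as TPM. The gene is on chromosome 1, at 23845077 to 23868294 (GRCh38, here and below). NEU1, the lysosomal sialidase, had control values of 140, 154 and 152 and sgMETTL1.3 values of 284, 208 and 249. Each sgMETTL1.3 library was above every control, with a log2 fold change of 0.72 (adjusted p = 0.000179), or 1.07 as TPM. Without replicate 1, the highest library, it was 0.61.

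HEXA encodes the alpha subunit of beta-hexosaminidase, which cleaves a ganglioside presented by GM2A. Its values were 129, 141 and 141 in controls and 232, 190 and 217 with sgMETTL1.3, a log2 fold change of 0.63 (adjusted p = 0.000198 by limma). HEXA stood at 0.57 on this scale without replicate 1, its highest library there. As TPM the HEXA libraries of each group lay close together, at 115 ± 1.5 and 228 ± 1.34 (SD, n = 3). GLB1, the lysosomal beta-galactosidase, rose from 183 ± 9.31 to 250 ± 28.3 (SD, n = 3; log2 fold change 0.44, adjusted p = 0.00328), and from 154 ± 1.82 to 268 ± 9.80 as TPM. GLB1 stood at 0.39 on the deposited scale without replicate 1, its highest library there. HEXA exons overlap HEXA-AS1 on the opposite strand, and reads there could be shared, since no source used here says whether counting used strand.

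GLA ran opposite to the other called glycosidases. It encodes alpha-galactosidase A, which removes terminal galactose from globotriaosylceramide, and lies on chromosome X at 101397803 to 101408012. Control values were 175, 186 and 188, and sgMETTL1.3 values were 96.2, 85.4 and 94.3. No sgMETTL1.3 library came near a control, and the level fell by 0.99 on the log2 scale (SE 0.0969, adjusted p = 3.53e-06 by limma), or by 0.64 as TPM. By TPM GLA ranked 12 among the members in controls (154 ± 2.08) and 18 with sgMETTL1.3 (98.6 ± 4.45; SD, n = 3).

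The other 6 glycosidases did not pass on the deposited scale. GAA, which degrades glycogen, had values of 32.7, 35.4 and 36.2 in controls and 56.4, 32.1 and 37.4 with sgMETTL1.3, so the high mean came from replicate 1. NAGLU, an enzyme of heparan sulfate breakdown, showed the same shape, with 27.9 in replicate 1 and 14.9 and 16.9 in the others against 15.1 to 16.4 in controls. Both rose as TPM (0.56 and 0.58, limma adjusted p = 0.0116 and 0.0203), and also as TPM without replicate 1 (0.40 and 0.38). IDUA, alpha-L-iduronidase, had the widest gap, with 18.0 in replicate 1 and 8.19 and 9.43 in the others against 10.5 to 11.6 in controls. Its log2 fold change was 0.00 with all libraries (0.32 as TPM, not passing), and it fell without replicate 1 (-0.32). IDUA also has the highest GC content among the members (69.3%), and its exons overlap SLC26A1 on the opposite strand.

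MANBA, beta-mannosidase, had a low GC content (40.5%) and was lowest in replicate 1 as TPM (32.9, against 40.4 and 40.5). It rose as TPM (0.44, limma adjusted p = 0.00681) and stood at 0.10 on the deposited scale without passing. With GC correction on the deposited scale it rose (0.22). MAN2B1, the alpha-mannosidase, was 206 to 215 in controls and 225, 140 and 158 with sgMETTL1.3. It did not pass with all libraries (-0.30, or 0.04 as TPM) and fell without replicate 1 (-0.50, and -0.09 as TPM). It also fell with GC correction (-0.47, and -0.12 as TPM). GUSB, beta-glucuronidase, stood at -0.10 and rose as TPM (0.25, adjusted p = 0.0117). Of 6 GUSB pseudogenes with a row, 4 had means between 1.99 and 20.1, and reads could be split between them and GUSB, which makes its value uncertain.

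ARSB, a sulfatase, had the largest fall of any member. On the deposited scale 0 of 4 tested sulfatases rose in limma, also at an unadjusted p under 0.05, and 1 fell. Over all tested genes 6.4% rose and 49.3% fell, so 0 of 4 lies near the first share. As TPM, leaving aside SGSH, 1 of 4 rose and 1 fell (24.4% and 26.6% of all genes). Without sgMETTL1.3 replicate 1 the other 3 rose as TPM and ARSB fell (34.7% and 35.4% of all genes). ARSB removes sulfate from N-acetylgalactosamine in dermatan and chondroitin sulfate, and lies on chromosome 5 at 78777209 to 78986087. Its values were 42.4, 45.0 and 42.1 in controls and 12.3, 10.5 and 12.4 with sgMETTL1.3. The 2 groups were far apart and each was tight, with a mean ratio of 0.272 and a log2 fold change of -1.80 (SE 0.111, adjusted p = 1.70e-07 by limma), or -1.46 as TPM. Leaving out replicate 1 gave -1.83.

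Of the other 4 sulfatases, 3 were tested on the deposited scale without passing, and SGSH was near 0 in controls. IDS, the iduronate sulfatase, had values of 38.7, 43.4 and 40.5 in controls and 35.7, 32.7 and 36.4 with sgMETTL1.3. Those groups did not overlap, but the difference did not pass (log2 fold change -0.22, limma adjusted p = 0.0876), it passed as lower without replicate 1 (-0.24), and it passed as higher as TPM without that library (0.17). GALNS, which acts on keratan sulfate, was at -0.12 without passing and rose as TPM (0.22, adjusted p = 0.0421). It fell with GC correction on the deposited scale (-0.27). ARSA, which acts on sulfatide, was at 0.08 and at 0.38 as TPM without passing either time; it rose as TPM without replicate 1 (0.22). GALNS and ARSA were both highest in replicate 1 (33.3 and 9.62), and their GC contents were 57.7% and 66.0%.

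SGSH, heparan N-sulfatase, was listed at 0.113, 0.0368 and 0.181 in controls and 1.33, 0.907 and 1.18 with sgMETTL1.3. All 3 sgMETTL1.3 libraries were above all controls, but the gene missed the minimum on the deposited scale and has no test there. As TPM it passed the minimum only through the sgMETTL1.3 libraries, so its call there (adjusted p = 0.000285 by limma) had to favour that direction. No fold is given at these levels, since the read depth is unknown. SGSH lies head to head with SLC26A11 on chromosome 17 (80206716 to 80220923 on the minus strand), and the 2 genes share 8 bases of exon on opposite strands.

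**Figure D2:**
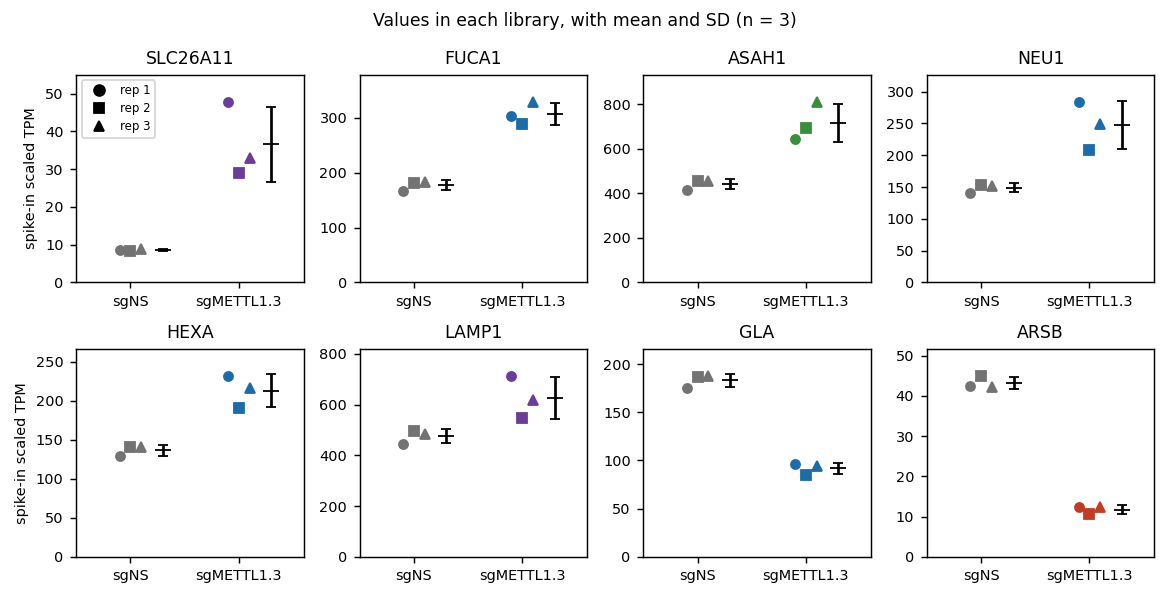
Spike-in scaled TPM (y axis, from 0) of 8 members in each library, with group mean and SD beside the points. SLC26A11, FUCA1, ASAH1, NEU1, HEXA and LAMP1 are higher in every sgMETTL1.3 library than in any control, and GLA and ARSB are lower.

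Of the 8 lipid enzymes, activators and carriers, 3 rose and 0 fell on the deposited scale in limma (6.4% and 49.3% of all genes). At an unadjusted p under 0.05, 0 were lower there as well. As TPM 6 rose and 0 fell (24.4% and 26.6% of all genes). ASAH1, acid ceramidase, which releases sphingosine from ceramide, had values of 415, 457 and 456 in controls and 645, 693 and 813 with sgMETTL1.3. All 3 libraries of the second group were higher, with a log2 fold change of 0.69 (SE 0.107, adjusted p = 0.000121 by limma), or 1.04 as TPM. ASAH1 was lowest in replicate 1 and has the lowest GC content among the members (37.3%), and without that library its log2 fold change was 0.76. SMPD1, acid sphingomyelinase, which makes ceramide, had 15.5, 21.1 and 21.2 in controls and 35.8, 24.9 and 27.8 with sgMETTL1.3. Its log2 fold change was 0.59 (adjusted p = 0.00944), or 0.92 as TPM, and 0.44 without replicate 1.

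PSAP encodes the precursor of the saposins, small proteins that present sphingolipids to their hydrolases, and was the most abundant member. Its values were 711, 740 and 760 in controls and 1105, 835 and 959 with sgMETTL1.3, a log2 fold change of 0.38 (adjusted p = 0.00967 by limma), or 0.73 as TPM. PSAP stood at 0.28 on the deposited scale without replicate 1, its highest library there. NPC2, a soluble cholesterol carrier, was 380 ± 12.6 and 451 ± 61.2 (SD, n = 3) without passing (adjusted p = 0.0828), and rose as TPM (0.59, adjusted p = 0.000213) and, on the deposited scale, without sgMETTL1.3 replicate 2 (0.34). Without sgMETTL1.3 replicate 1, its highest library, NPC2 stood at 0.15 from 0.24 and did not pass. With GC correction on the deposited scale NPC2 rose (0.30). GALC, galactosylceramidase, and GM2A, the ganglioside activator, also rose as TPM (0.41 and 0.29), and stood at 0.10 and -0.06 on the deposited scale. LIPA, the acid lipase for cholesteryl esters and triglycerides, and PPT1, a palmitoyl thioesterase, passed on neither scale (-0.12 and -0.14, and 0.22 and 0.20 as TPM). Both were lowest in replicate 1 (108 and 311), and both rose as TPM without it (0.35 and 0.32). PPT1 exons overlap CAP1 on the opposite strand by 1189 bases.

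Neither of the 2 proteases was called on the deposited scale. TPP1, a tripeptidyl peptidase, had values of 200, 212 and 208 in controls and 191, 175 and 191 with sgMETTL1.3. The groups did not overlap, with a log2 fold change of -0.16 (adjusted p = 0.172 by limma), and TPP1 rose as TPM (0.19, adjusted p = 0.0326). It fell with GC correction on the deposited scale (-0.20). LGMN, an asparaginyl endopeptidase, was at or near 0 in all 6 libraries, at most 0.133, and was not tested.

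Of the 7 membrane proteins, 4 rose and 1 fell on the deposited scale (6.4% and 49.3% of all genes). As TPM 6 rose (24.4% of all genes) and NPC1 did not pass. SLC26A11 had the largest rise of any member. SLC26A11 is a sulfate transporter found at the lysosomal membrane, on chromosome 17 at 80219699 to 80253500. It entered the set with its rise already known, since an earlier pass over these data had listed it among the strongest increases. Its values were 8.57, 8.23 and 8.78 in controls and 47.9, 28.9 and 33 with sgMETTL1.3. Every sgMETTL1.3 library was over 3 times the highest control, with a mean ratio of 4.29 and a log2 fold change of 1.95 (SE 0.165, adjusted p = 5.14e-06 by limma), or 2.26 as TPM. Replicate 1 was the highest, and without it the log2 fold change was 1.74. By TPM it went from 7.19 ± 0.445 to 38.7 ± 6.91 (SD, n = 3), which moved it from rank 29 to rank 21 of 32 members.

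MCOLN1 encodes a cation channel that releases calcium from lysosomes, and its promoter carries 2 of the E-boxes shown above. Its values were 12.1, 13.4 and 14.2 in controls and 28.2, 17.1 and 20.2 with sgMETTL1.3, without overlap. The log2 fold change was 0.65 (adjusted p = 0.00603 by limma), or 0.98 as TPM, and 0.46 without replicate 1. CLN3, a membrane protein mutated in juvenile neuronal ceroid lipofuscinosis, was 31.4, 31.6 and 31.4 in controls and 63.9, 37.8 and 40.8 with sgMETTL1.3. It rose by 0.54 on the log2 scale (adjusted p = 0.0286), by 0.88 as TPM and by 0.31 without replicate 1. It did not pass without sgNS replicate 1 (adjusted p = 0.0681) or sgNS replicate 2 (adjusted p = 0.0617), or with no filter on low values (adjusted p = 0.06). CLN3 exons overlap APOBR on the opposite strand by 567 bases.

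LAMP1, a heavily glycosylated protein of the lysosomal membrane, had values of 444, 496 and 485 in controls and 713, 547 and 618 with sgMETTL1.3. It was higher in each sgMETTL1.3 library, with a log2 fold change of 0.39 (SE 0.110, adjusted p = 0.00850 by limma), or 0.74 as TPM. LAMP1 stood at 0.29 on the deposited scale without replicate 1, its highest library there. LAMP2, its close relative, went from 205 ± 8.16 to 227 ± 14.7 (SD, n = 3) without passing (adjusted p = 0.201), and rose as TPM (0.50). With GC correction on the deposited scale LAMP2 rose (0.29). CD63, a tetraspanin of late endosomes and lysosomes, stood at 0.21 (adjusted p = 0.103), and rose as TPM (0.56) and without sgMETTL1.3 replicate 2 (0.30), but not without replicate 1 (0.15). NPC1, the cholesterol exporter that takes its load from NPC2, was the only membrane protein that fell, from 193, 208 and 206 to 159, 143 and 163. That was a log2 fold change of -0.38 (adjusted p = 0.00439), close to the median of all genes, and as TPM it was -0.04 without passing (170 ± 0.883 and 166 ± 9.81; SD, n = 3).

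The levels spanned a wide range, and are compared between genes only as TPM, which accounts for transcript length. In controls PSAP led at 621 ± 15.2, followed by LAMP1 (400 ± 5.74), CD63 (384 ± 7.15), ASAH1 (372 ± 5.25), NPC2 (320 ± 12.0) and PPT1 (310 ± 8.38; SD, n = 3). CD63 and ASAH1, and NPC2 and PPT1, lay within 2 SD of each other, as did GLB1, GLA and GM2A (154 each). At the low end were IDUA (9.44), SLC26A11 (7.19), GALC (5.75), ARSA (5.36) and SGSH (0.0933). With sgMETTL1.3, ASAH1 moved from rank 4 to rank 2 (773 ± 125), FUCA1 from 14 to 7 (330 ± 29.8), and ARSB from 19 to 28 (12.6 ± 0.562). MAN2B1 moved from rank 7 to rank 14 while its own level was 178 ± 3.94 and 185 ± 29.8. Others lay close to it, so its exact ranks are uncertain. In controls these were TPP1 (174 ± 2.70) and LAMP2 (172 ± 3.52), and with sgMETTL1.3 TPP1 (199 ± 12.1) and GM2A (189 ± 5.78).

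**Figure D3:**
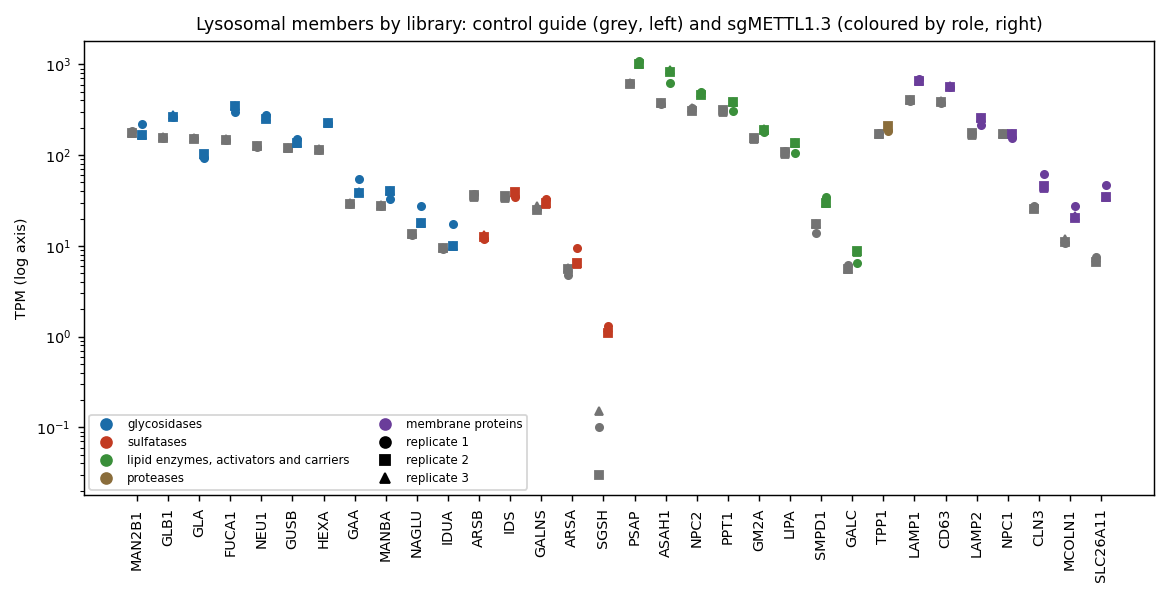
TPM (y axis, log scale) of 32 members in each library, ordered by role and control level, with controls in grey at the left of each pair and sgMETTL1.3 libraries in colour at the right. Control points nearly coincide for most genes, SLC26A11 and SGSH show the widest upward steps, ARSB the widest downward step, and LGMN is left out because it was listed at 0 in a control.

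Summed over all 33 members, the transcripts made up 4428 ± 23.9 TPM in controls and 6672 ± 124 TPM with sgMETTL1.3 (SD, n = 3), a ratio of 1.51, or 1.52 without replicate 1. The sums of the 3 sgMETTL1.3 libraries (6534, 6708 and 6774) all lay above those of the controls (4438, 4401 and 4446). Abundant genes weigh most in such a sum, and the ratio by role was 1.57 for the lipid group, 1.52 for glycosidases, 1.5 for membrane proteins and 1.14 for proteases. Only the sulfatases summed lower, from 102 ± 0.483 to 89.0 ± 0.887 TPM, where ARSB went from 36.4 to 12.6 TPM and the other 4 sulfatases had higher means with sgMETTL1.3. These sums use members chosen with results known and carry no test.

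Members rich in GC were highest in sgMETTL1.3 replicate 1. Among the 31 tested members the median transcript GC was 51.2%, against 48.5% over all tested genes with a value, and it ranged from 37.3% (ASAH1) to 69.3% (IDUA). The Spearman correlation between GC and the distance of replicate 1 from the other 2 libraries was 0.921 over these members, as a description of points that share the same libraries. In 21 of 33 members replicate 1 was the highest of its group on the deposited scale. Its factor is also the largest of its group (1.03, against 0.832 and 0.949), which raises every gene on that scale. As TPM, HEXA, GLA, GM2A and CD63 of these 21 were lowest in replicate 1, GLB1 lay between the other libraries, and the rest stayed highest. The median distance was 0.19 over the tested members and 0.09 over all tested genes with a GC value, on the deposited scale. The distance was 0.69 for CLN3, 0.62 for SLC26A11 and 0.57 for MCOLN1 on the log2 scale, and -0.22 for ASAH1 and -0.03 for FUCA1. All 11 members that rose on the deposited scale also rose without this library.

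**Figure D4:**
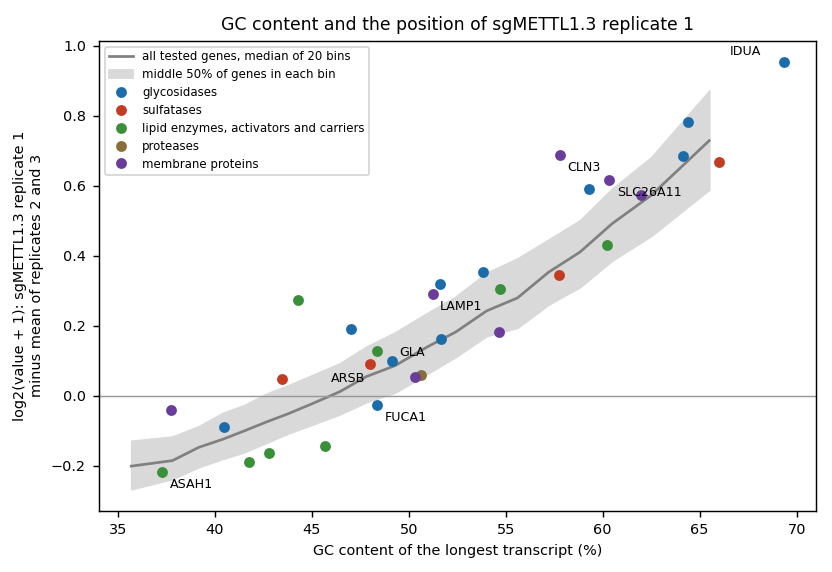
Distance of sgMETTL1.3 replicate 1 from the mean of replicates 2 and 3 (y axis, log2(value + 1)) against transcript GC content (x axis, percent) for the 31 tested members (points, by role) and for all tested genes (line and band). The members follow the line of all genes, from ASAH1 at -0.22 to IDUA at 0.95.

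Other lysosome genes outside the set moved in both directions. Of 41 further hydrolases, membrane proteins and delivery factors with a row, 37 were tested. On the deposited scale 7 rose and 9 fell (6.4% and 49.3% of all genes), and as TPM 21 rose and 6 fell (24.4% and 26.6%). Their median log2 fold change was -0.06, and 0.29 as TPM, both between those of all genes and of the 33 members. Among further hydrolases, SIAE, a sialic acid esterase, fell from 12.0 ± 0.875 to 5.92 ± 0.842 (SD, n = 3; log2 fold change -0.91, limma adjusted p = 6.17e-05), or -0.60 as TPM. ARSG, an arylsulfatase, also fell (-0.64, and -0.36 as TPM), as did PCYOX1 (-0.45), but PCYOX1 missed the threshold as TPM (-0.10). Among further membrane proteins, SLC17A5, the sialic acid exporter, rose from 47.9 ± 1.81 to 77.0 ± 5.41 (SD, n = 3; log2 fold change 0.67), or 1.01 as TPM. HGSNAT, an acetyltransferase of heparan sulfate breakdown, and TMEM192 fell (-0.65 and -0.62, and -0.31 and -0.29 as TPM). SPNS1, a lysosomal lipid transporter, also rose (0.71, limma adjusted p = 0.0182, and 1.05 as TPM). It stood at 0.46 without sgMETTL1.3 replicate 1, its highest library, and did not pass without sgNS replicate 1 (adjusted p = 0.0577) or sgNS replicate 2 (adjusted p = 0.0522).

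Of 10 tested genes that tag and carry the hydrolases, 1 rose and 2 fell on the deposited scale (6.4% and 49.3% of all genes). As TPM 7 rose and 1 fell (24.4% and 26.6% of all genes). GNPTAB, which encodes catalytic subunits of the enzyme that starts the mannose 6-phosphate tag, was at 62.3 ± 3.50 in controls and fell to 31.7 ± 3.05 (SD, n = 3), which is -0.96 in log2 (adjusted p = 9.57e-06 by limma), or -0.61 as TPM. IGF2R, the large receptor for that tag, rose from 213 ± 8.14 to 331 ± 30.3 (0.63, adjusted p = 0.000157), or 0.98 as TPM. GGA3, an adaptor for the receptors, fell (-0.42) and missed the threshold as TPM (-0.08). NAGPA, which uncovers the tag, stood at 0.44 (adjusted p = 0.0635), and rose as TPM (0.76) and, on the deposited scale, without sgMETTL1.3 replicate 2 (0.61) or sgNS replicate 3 (0.49). Without sgMETTL1.3 replicate 1, its highest library, NAGPA stood at 0.22 and did not pass.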

How the data were processed

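Poly(A) RNA libraries with ERCC spike-ins were made from 300 ng of total RNA per sample, per the labels' protocols. The tools were cutadapt, STAR and RSEM on GRCh38 (hg38), per the submitters' processing notes; their versions, the annotation and the use of strand are not given here. The deposited signal values are TPM in steps of 0.01, each library multiplied by a single factor that makes the 92 spike-in rows sum to 38252, as read from the values. Without counts the depth is unknown, so values carry no counting interval; between 12134 and 12505 genes per library were at 1 or more.

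Genes at 1 or more in 3 or more of the 6 libraries were tested with limma 3.58.1 (R 4.3.3; trend, robust, two-sided, no block) after log2(value + 1), a scale on which low genes show less than their full change. This was the test planned for normalized values, not counts. P-values were adjusted over all genes by Benjamini-Hochberg, with a threshold of 0.05. Dividing by the factor gave TPM. GC content is that of the longest transcript in GENCODE release 29 (GRCh38), the source of gene positions, and 94.3% of tested genes had a value. The GC correction fits a smooth curve (lowess) of GC to each library's difference from the mean of all 6 libraries, and subtracts it. It therefore also removes any difference between the groups that follows GC, and changes the controls as well. The fit was tested on simulated data. The members, the gene lists and the rule for named genes were chosen with earlier results of these data known. The rule covers METTL1, WDR4, every member, and up to 4 genes by p in each of 3 groups of other lysosome genes, of which 1 is not reported here. The alternatives rescaled the values, left out each library, and changed the filter, the pseudocount, the variance trend and the block. There were 28 rows with names turned into dates, left as they are.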

Additional observations from a re-analysis of the deposited data

How the results depend on the processing

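METTL1 was lower and passed in all 18 alternatives. Leaving out each library in turn kept the count of members higher between 10 and 13, of members lower between 3 and 6 (6 without sgMETTL1.3 replicate 1), their median between 0.12 and 0.23, METTL1 between -1.50 and -1.29, all genes higher between 534 and 1037, all genes lower between 4880 and 7538, and other lysosome genes between 5 and 11 higher and 8 and 12 lower (11 higher without sgMETTL1.3 replicate 2). Without sgMETTL1.3 replicate 1, as with the GC correction and the block, the spread was pooled fully across most genes, so those counts of calls are not directly comparable.

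The count of members lower moved most with GC correction (7) and without sgMETTL1.3 replicate 1, and counts of higher genes with the scale. In 5 settings, in the order TPM, median-ratio rescaling, TPM corrected for GC, TPM leaving out sgMETTL1.3 replicate 1, and TPM plus the replicate block (chosen after seeing the data), members higher numbered 23, 23, 24, 26 and 21, with a median of 0.53, 0.54, 0.48, 0.53 and 0.53. Except where sgMETTL1.3 replicate 1 was left out, the tested members include SGSH, which reached the minimum only through the sgMETTL1.3 libraries. As TPM without SGSH, 22 of 31 rose, with a median of 0.50. Other lysosome genes higher numbered 21, 22, 23, 26 and 18, and all genes higher 3021, 3179, 3444, 4231 and 2824. All genes lower numbered 3295 as TPM, 3340 with median ratios and 3077 as TPM with the block, and other lysosome genes lower 5 in the last 2. A minimum mean of 5 left 510 genes higher, with fewer genes tested.

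The replicate block on the deposited scale gave 11 members higher and 3 lower. It called NAGPA higher (0.44) and changed no other call among the named genes. The samples share only a number: deviations of same-numbered libraries correlated at -0.0137, 0.00455 and -0.0385, and not every sample correlated best with its own number.

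Signs turned with a call in either setting, in the same order of settings as above where they apply, for GUSB (0.25, 0.26, 0.16, 0.20 and 0.25), GM2A (0.29, 0.31, 0.29, 0.32 and 0.29), GALNS (0.22, 0.23 and, without the library, 0.17) and TPP1 (0.19, 0.21 and, without the library, 0.24). With TPM corrected for GC and with TPM leaving out the library they also turned for IDS (0.19 and 0.17), LIPA (0.31 and 0.35), PPT1 (0.24 and 0.32) and PCYOX1 (0.0039 and 0.017, not passing), and in the latter for NPC1 (0.013, not passing). IDUA turned with GC correction (-0.33) and without the library (-0.32), both on the deposited scale. A further 26 turns, over 12 members, had no call in either setting, among them ARSA with GC correction (-0.19) and MAN2B1, IDS, LIPA and PPT1 as TPM (0.04, 0.12, 0.22 and 0.20). The cause was not tested. Over the 44 named genes and all settings, 690 of 791 values kept their side of the threshold without a called turn of sign. The 26 turns with no call in either setting are counted among these 690, so not all of them kept direction.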
